A study of Mus musculus with 24 samples.

Results

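The genes described here are 27 genes of cholesterol synthesis and its control by the transcription factor SREBP2, out of 19134 genes measured in both conditions of the study. They were taken by gene symbol, and all 27 were found in both tables. The members comprise 20 enzymes of the route from acetyl-CoA to cholesterol, 6 genes for SREBP2 and the proteins that release or hold it, and the sterol carrier gene Stard4. The cells were mouse E14 embryonic stem cells, a line grown from the early embryo, kept on gelatin in serum with leukaemia inhibitory factor (LIF). They were wild type or belonged to either of 2 lines labelled as Smad2 knockouts, Smad2_KO1 and Smad2_KO2. Smad2 is a protein through which Nodal and activin act on transcription. Each genotype was studied in control medium or after 12 h with the mTOR kinase inhibitor INK128 at 200 nM, which induces a paused state, and 4 libraries of poly(A) RNA were made for each of the 6 groups. How Smad2 was deleted, and whether each knockout line is 1 clone, is not given in the sources used here. The same holds for whether the 4 samples of a group were separate cultures, so p-values measure only the spread between these samples, which may be technical.

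Cholesterol is built from acetyl-CoA through mevalonate, isoprenoid diphosphates, squalene and lanosterol, and lanosterol is then trimmed and reduced to cholesterol. SREBP2 is made as a membrane protein of the endoplasmic reticulum, where SCAP holds it and, when sterols are plentiful, the INSIG proteins keep both in place. When sterols run low, SCAP escorts SREBP2 to the Golgi, the proteases encoded by Mbtps1 and Mbtps2 release its active part, and this switches on the genes of the pathway together with Insig1. mTOR complex 1 is known to promote SREBP activity, and Nodal and Smad2 act in embryonic stem cells on lineage and pluripotency genes. The series title joins Nodal and Smad2 in pausing to lipid metabolism through Pparg, so the comparisons ask how transcripts of this sterol route differed with Smad2 loss in each condition.

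The values are a mean normalized read count per gene and table, and a log2 change with its standard error (SE) and adjusted p; no value for a single library was analysed here, so spread between replicates enters only through the SE. The depth per library is unknown. Summed mean normalized counts were 4.61e+07 in the control and 4.43e+07 in the paused table, and the members' SE in the authors' deposited tables ran from 0.03 to 0.13 in control and from 0.02 to 0.13 in paused cells. The tables do not name the numerator. Changes are read as knockout over wild type because Smad2 mRNA was lower in both of the authors' deposited tables, by a change of -0.35 (SE 0.07, adjusted p 6.5e-06) in control and of -0.63 (SE 0.06, adjusted p 4.1e-26) in paused cells. Smad2 mRNA thus stood at 78.6% and 64.6% of wild type, so most of the transcript remained; protein was not measured here, and Smad2 loss below follows the labels. Pparg had changes of 3.26 (SE 0.34) and 4.44 (SE 0.34) in the authors' deposited tables. Levels are given as ppm (1e-06) of the summed mean counts. The 6 markers of embryonic stem cells lay between 408 and 1123 ppm in control and between 426 and 996 ppm in paused cells. Of these, the authors' deposited tables called Nanog higher in both conditions (0.32, adjusted p 6.39e-07, and 0.18, adjusted p 0.0358) and Pou5f1 lower in control cells (-0.18, adjusted p 0.00630). Markers of other lineages summed per lineage to less than any 1 stem cell marker, and some moved with Smad2 loss. The highest were Nes (45.9 and 48.4 ppm), Dab2 (11.8 and 27.8 ppm) and Gata3 (13.2 and 14.0 ppm), within the range of the members. The 5 primitive endoderm markers summed to 19.3 and 38.7 ppm and all 5 were called higher in both of the authors' deposited tables. Of the primitive streak markers, 3 were in both tables (13.5 and 13.5 ppm), with 3 called lower in control and 2 in the paused state of the authors' deposited tables. In each condition of the same tables, neuroectoderm (57.5 and 55.4 ppm) had 1 of 3 markers called higher and 2 lower, trophoblast (17.2 and 17.4 ppm) 1 of 3 each way, and fibroblasts (16.7 and 17.0 ppm) 2 of 3 lower. No marker of these lists was at 0 in a table that held it, the lowest being that of trophoblast at 0.33 and 0.17 ppm. The part of such cells in the changes below was not tested, and in bulk samples fewer cells of a type and less RNA per cell cannot be told apart.

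Loss of Smad2 went with small changes of this gene group, most of them negative in both conditions. In control cells 19 of the 27 changes were negative and in paused cells 21. Of genes with at least 5 ppm, 60.3% and 59.9% were negative. The members' median SE was 0.064 in control and 0.052 in paused cells, so a change of equal size could be called in paused cells alone. The authors' paused table as deposited had 15 of the 27 members called lower (adjusted p under 0.05) and 2 higher, against 22.0% and 20.5% of all genes with a p, and 42.6% called either way. The authors' control table as deposited had 7 members called lower and 0 higher, while 21.9% of all its genes were called lower, 19.5% higher and 41.4% either way. The share of members called in control cells, 25.9%, was thus below that of all genes, and in paused cells it was 63.0%. Members are mostly abundant transcripts, 26 of them with at least 5 ppm in each table, and abundant genes were called more often: 50.0% in control and 51.6% in paused cells, with 31.6% and 31.9% called lower. Against those shares, the 7 members called lower in control cells were 26.9% of 26, and the 15 in paused cells 57.7% of 26.

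The scale of the changes was small. The median change of the members in the authors' deposited tables was -0.09 in control and -0.13 in paused cells, beside medians of 0.00 over all genes and of -0.05 in both conditions over abundant genes. No member changed by more than 0.40 in control or 0.43 in paused cells in either direction. A change of at least 1.2-fold together with the call was reached in control cells by Idi1 and Cyp51 and in paused cells by Idi1, Cyp51, Msmo1 and Sc5d. These 2 and 4 of 27 members compare with 28.5% and 26.8% of all genes. With changes centred on the median of abundant genes, 3 members were called lower and 4 higher in control cells, and 12 lower and 4 higher in paused cells. Of all genes, 15.9% were then lower and 23.9% higher in control and 16.0% and 24.9% in paused cells, so the members' control shares lay below those of all genes in both directions. The other scaling, to equal summed counts in both genotypes, gave 3 lower and 4 higher in control and 13 lower and 3 higher in paused cells, against 15.7% and 24.1% of all genes in control and 17.4% and 23.7% in paused cells. The members' median change became -0.04 in control and -0.08 in paused cells after centring. At equal summed counts it was -0.03 in control and -0.10 in paused cells. Each statistic was also divided by its middle spread, the median absolute statistic of all genes scaled as for a normal distribution (2.76 in control and 2.80 in paused cells). No member was then called in either condition, while 293 and 450 genes of all were. This divisor takes the bulk of genes as unchanged, though 41.4% and 42.6% of all genes were called. It therefore cannot tell small real changes from excess spread.

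**Figure D1:**
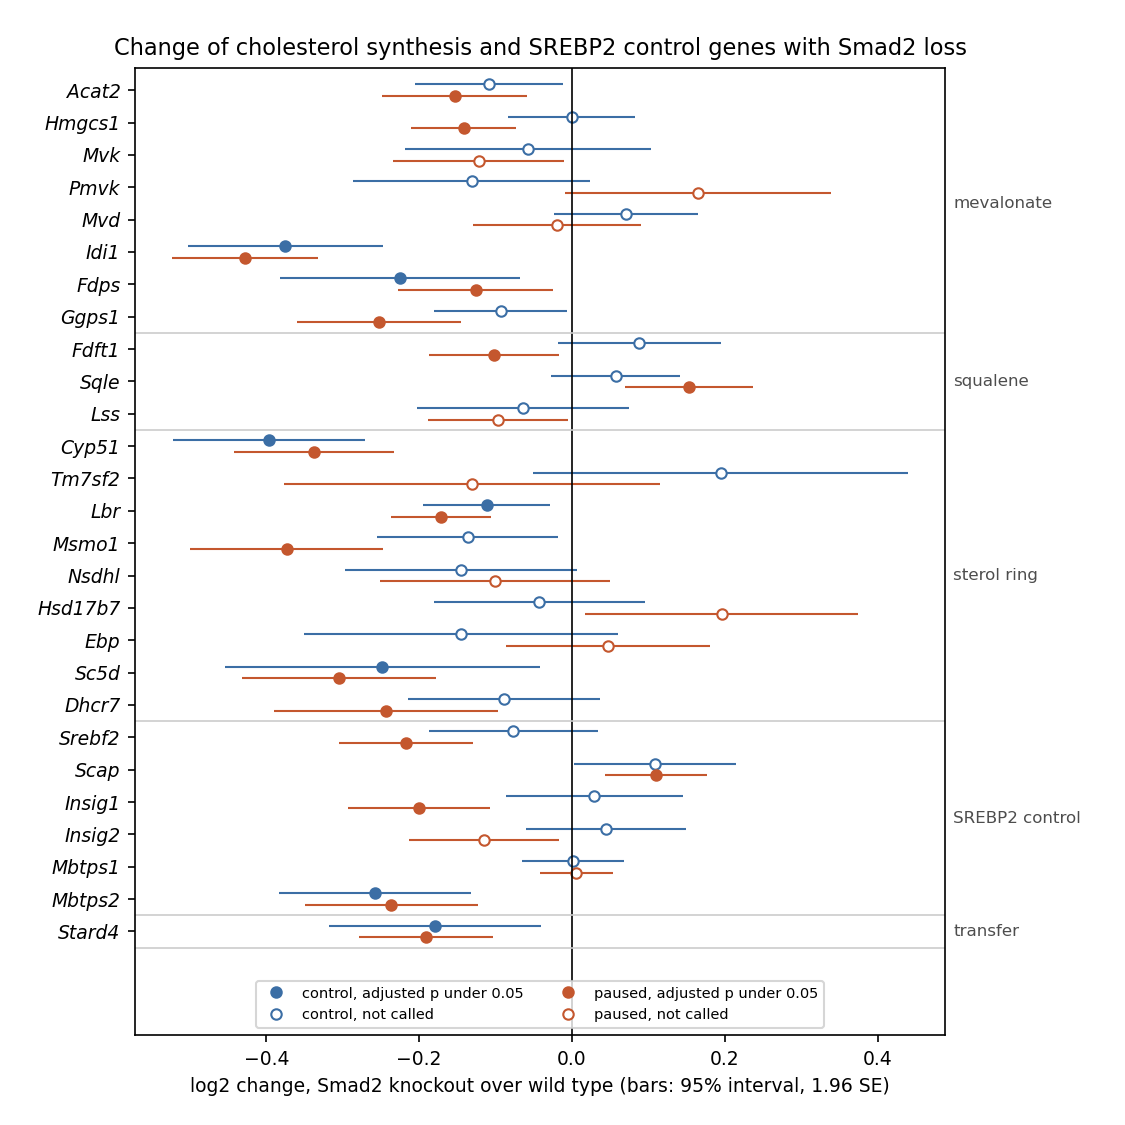
Log2 change of each member with Smad2 loss (knockout over wild type) in control (blue) and paused (orange) cells, with 95% intervals as bars and filled points for an adjusted p under 0.05. Most filled orange points lie left of 0, Cyp51 lies furthest left among the blue points and Idi1 among the orange ones, and Sqle and Scap are the only filled points to the right.

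The first steps of the route join acetyl units and make the isoprenoid diphosphates. Idi1, which interconverts the isopentenyl and dimethylallyl diphosphate building blocks, had the largest change of the members in paused cells. Its mean in the authors' deposited tables was 4883 normalized counts in control cells, where it fell by 0.38 (SE 0.07, adjusted p 1.08e-07), and 1188 in paused cells, where it fell by 0.43 (SE 0.05, adjusted p 9.29e-17). The knockout thus stood at 77.1% and 74.4% of wild type. Fdps, the farnesyl diphosphate synthase, fell by 0.22 (SE 0.08, adjusted p 0.0151) in control and by 0.13 (SE 0.05, adjusted p 0.0374) in the paused state of the authors' deposited tables. Both calls of Fdps were lost after either scaling of the changes. Over stretches of 605 to 1066 bases, 4 processed pseudogenes are at least 95% identical to Fdps, as is the overlapping gene Gm43738, and 2 pseudogenes match part of Idi1, so these values are uncertain where reads were shared.

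Other genes of these steps were called in paused cells alone, though no difference between conditions was called for any member. Hmgcs1, the cytosolic HMG-CoA synthase, was at 100% of wild type in the authors' deposited control table (change -0.00034, SE 0.04) and fell by 0.14 in the paused one (SE 0.03, adjusted p 2.41e-04). Ggps1, which makes geranylgeranyl diphosphate for protein prenylation, had a control change of -0.09 (SE 0.04, adjusted p 0.0803) and fell by 0.25 (SE 0.05, adjusted p 2.62e-05) in the paused state of the authors' deposited tables. The processed pseudogene Gm5630 is 97.2% identical to Ggps1 over 903 bases. Acat2, the cytosolic acetyl-CoA acetyltransferase, had a control change of -0.11 (SE 0.05, adjusted p 0.0656) and fell by 0.15 (SE 0.05, adjusted p 0.00511) in paused cells as the authors deposited them. Centring the changes on abundant genes ended that call. Acat2 shares 97.7% identity over 1477 bases with the neighbouring paralog Acat3, so their separate values are uncertain. Acat2 also matches Tcp1 on the opposite strand over 445 bases (98.7% identity). Tcp1, a chaperonin subunit gene, had means of 24484 and 20258 normalized counts in the authors' deposited tables, above those of Acat2 (5046 and 3116), and fell by 0.28 (adjusted p 2.12e-04) and by 0.18 (adjusted p 3.25e-07). Its part in the value of Acat2 was not tested. The kinases and the decarboxylase between mevalonate and isopentenyl diphosphate, Mvk, Pmvk and Mvd, were called in neither condition. Their changes in the authors' deposited tables were -0.06 and -0.12 for Mvk, -0.13 and 0.16 for Pmvk, and 0.07 and -0.02 for Mvd, control first. Centring put Pmvk past the threshold in paused cells (0.21, adjusted p 0.0420). Mvd was called higher in control cells after centring (0.12, adjusted p 0.0287) and after scaling to equal sums (0.13, adjusted p 0.0262).

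The squalene steps went in no common direction. Sqle, the squalene epoxidase and a rate-limiting enzyme of the pathway, was 1 of the 2 members called higher: its change in the authors' deposited tables was 0.06 (SE 0.04, adjusted p 0.299) in control cells and 0.15 (SE 0.04, adjusted p 0.00135) in paused cells, at 111% of wild type. Fdft1, the squalene synthase, had a control change of 0.09 (SE 0.05, adjusted p 0.192) in the authors' deposited tables. With Smad2 loss in paused cells it fell by 0.10 (SE 0.04, adjusted p 0.0464). That last call was lost under both scalings and at an adjusted p under 0.01. In control cells both scalings called Fdft1 higher (0.14, adjusted p 0.0269 when centred and 0.0248 at equal sums). They also called Sqle higher in control cells (0.11, adjusted p 0.0294 when centred and 0.0266 at equal sums). The processed pseudogene Gm6781 is 97.4% identical to Fdft1 over 1249 bases on the same strand. The exons of Fdft1 overlap those of Ctsb on the other strand over 774 bases, 20.9% of its exon length. Ctsb itself rose by 0.27 in control cells and had a change of 0.10, not called, in the paused state of the authors' deposited tables, and whether counting used strand is not given in the sources used here. Lss, which closes squalene epoxide into lanosterol, had changes of -0.06 and -0.10 in the authors' deposited tables, not called.

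Among the enzymes that turn lanosterol into cholesterol, 3 of 9 fell in control cells and 5 of 9 in paused cells, with 0 called higher. The shares called lower in control and paused cells were 21.9% and 22.0% of all genes and 31.6% and 31.9% of abundant ones, the latter near the control count of 3 of 9. Cyp51, the lanosterol demethylase, had the largest control change of all members: it fell by 0.40 (SE 0.06, adjusted p 1.06e-08) in the authors' deposited control table and by 0.34 (SE 0.05, adjusted p 3.58e-09) in the paused one, to 76.0% and 79.2% of wild type. Msmo1, the methylsterol oxidase of the next demethylations, fell by 0.37 in paused cells (SE 0.06, adjusted p 7.88e-08), and its control change of -0.14 (SE 0.06, adjusted p 0.0570) missed the threshold in the authors' deposited tables. Sc5d, the sterol desaturase late in the route, fell by 0.25 (SE 0.10, adjusted p 0.0449) in control cells and by 0.30 (SE 0.06, adjusted p 1.78e-05) in the paused state of the authors' deposited tables. Its control call was lost under either scaling. Dhcr7, which reduces 7-dehydrocholesterol to cholesterol, had a control change of -0.09 (SE 0.06, adjusted p 0.273) in the authors' deposited tables. With Smad2 loss in paused cells it fell by 0.24 (SE 0.07, adjusted p 0.00395).

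Lbr and Tm7sf2 encode alternative sterol reductases for the same step, and Lbr also anchors heterochromatin to the inner nuclear membrane. Lbr was far the more abundant, at 56.5 ppm per kb of exon in control and 49.7 in paused cells, against 2.54 and 1.42 for Tm7sf2. Lbr fell by 0.11 (SE 0.04, adjusted p 0.0240) and by 0.17 (SE 0.03, adjusted p 2.43e-06) in the authors' deposited control and paused tables, and the control call was lost under either scaling. Tm7sf2 had the widest errors of the members in both of the authors' deposited tables, with changes of 0.19 (SE 0.13) and -0.13 (SE 0.13), neither called. Nsdhl, Hsd17b7 and Ebp, the decarboxylase, ketoreductase and isomerase of the middle steps, were called in neither condition. By the authors' deposited tables, control first, their changes were -0.14 and -0.10 for Nsdhl, -0.04 and 0.20 for Hsd17b7, and -0.15 and 0.05 for Ebp. Hsd17b7 was called higher in paused cells when changes were centred (0.24, adjusted p 0.0212) or scaled to equal sums (0.23, adjusted p 0.0295).

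Srebf2, which encodes SREBP2, had a control change of -0.08 (SE 0.06, adjusted p 0.282) and fell by 0.22 in paused cells (SE 0.04, adjusted p 8.46e-06), to 86.0% of wild type, in the authors' deposited tables. Insig1, itself a target of SREBP2, had a control change of 0.03 (SE 0.06, adjusted p 0.729) and fell by 0.20 in paused cells (SE 0.05, adjusted p 1.44e-04) by the authors' deposited tables. Insig2 had changes of 0.04 (SE 0.05) and -0.11 (SE 0.05), the latter with an adjusted p of 0.0512, in the authors' deposited tables. Scap went the other way, with a change of 0.11 in both of the authors' deposited tables: the paused value was called (SE 0.03, adjusted p 0.00403) and the control value was not (SE 0.05, adjusted p 0.0938).

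Of the proteases that free SREBP2, 1 was called and 1 was not. Mbtps1, the site-1 protease, had changes of 0.0015 (SE 0.03) and 0.0056 (SE 0.02) in the authors' deposited tables, the smallest errors of any member. Mbtps2, the site-2 protease, fell in both of the authors' deposited tables, by 0.26 (SE 0.06, adjusted p 3.08e-04) in control and by 0.24 (SE 0.06, adjusted p 2.27e-04) in paused cells. Exons of Yy2 overlap 36.1% of the Mbtps2 exon length on the same strand, and Yy2 had changes of 0.06 and 0.0045, not called, in the authors' deposited tables. Stard4, a cytosolic sterol carrier and target of SREBP2, fell by 0.18 (SE 0.07, adjusted p 0.0294) and by 0.19 (SE 0.04, adjusted p 1.14e-04) in the authors' deposited control and paused tables. The control call of Stard4 was lost under either scaling, and that of Mbtps2 was kept.

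All 7 members that fell in control cells also fell in paused cells, namely Idi1, Fdps, Cyp51, Lbr, Sc5d, Mbtps2 and Stard4. They are 25.9% of the members, and 16.0% of all genes were lower in both of the authors' deposited tables. Of the 10 other members called in paused cells, 8 were lower and 2 higher. After either scaling of the changes, the control calls of Fdps, Lbr, Sc5d and Stard4 were lost. Those of Idi1, Cyp51 and Mbtps2 were kept in both conditions.

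The 250 bases before the start are printed for the 3 genes lower in both conditions whose larger adjusted p of the 2 tables was smallest (Cyp51, Idi1 and Mbtps2), and for the 3 members whose promoter windows hold the core of a sterol regulatory element, the site that SREBP2 is known to bind (Acat2, Hmgcs1 and Insig1). The sequences are those of RefSeq on GRCm38.p6, the assembly of the mm10 build that the submitters' processing notes name. They read 5′ to 3′ on the gene's strand, with the sterol regulatory element core and the NF-Y box in capitals in either orientation. The stretches are chr5:4104698-4104947 (minus strand), chr13:8885356-8885605 (plus), chrX:157598716-157598965 (minus), chr17:12960726-12960975 (minus), chr13:119690101-119690350 (plus) and chr5:28071162-28071411 (plus).
Cyp51: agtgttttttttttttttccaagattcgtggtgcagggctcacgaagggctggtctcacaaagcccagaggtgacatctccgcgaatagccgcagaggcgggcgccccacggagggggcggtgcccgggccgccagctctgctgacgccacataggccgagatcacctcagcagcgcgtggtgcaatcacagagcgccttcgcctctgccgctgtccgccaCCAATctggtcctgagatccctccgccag
Idi1: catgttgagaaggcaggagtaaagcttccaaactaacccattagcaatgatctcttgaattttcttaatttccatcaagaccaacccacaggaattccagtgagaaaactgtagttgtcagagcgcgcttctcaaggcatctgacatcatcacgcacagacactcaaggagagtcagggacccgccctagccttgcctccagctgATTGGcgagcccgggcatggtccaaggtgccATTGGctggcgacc
Mbtps2: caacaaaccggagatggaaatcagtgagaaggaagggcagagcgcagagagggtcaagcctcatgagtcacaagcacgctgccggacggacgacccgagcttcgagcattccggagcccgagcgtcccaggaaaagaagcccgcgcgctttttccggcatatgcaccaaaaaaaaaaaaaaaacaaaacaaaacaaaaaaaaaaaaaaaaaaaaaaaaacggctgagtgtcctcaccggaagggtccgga
Acat2: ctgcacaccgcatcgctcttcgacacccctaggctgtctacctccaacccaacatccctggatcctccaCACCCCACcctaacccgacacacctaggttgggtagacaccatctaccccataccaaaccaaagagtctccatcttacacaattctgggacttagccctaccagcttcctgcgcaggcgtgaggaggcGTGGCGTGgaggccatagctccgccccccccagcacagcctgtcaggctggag
Hmgcs1: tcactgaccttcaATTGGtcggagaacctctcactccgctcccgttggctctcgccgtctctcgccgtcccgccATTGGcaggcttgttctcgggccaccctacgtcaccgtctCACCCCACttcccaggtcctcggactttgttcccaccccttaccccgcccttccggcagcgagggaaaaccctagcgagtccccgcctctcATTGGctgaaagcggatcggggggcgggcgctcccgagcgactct
Insig1: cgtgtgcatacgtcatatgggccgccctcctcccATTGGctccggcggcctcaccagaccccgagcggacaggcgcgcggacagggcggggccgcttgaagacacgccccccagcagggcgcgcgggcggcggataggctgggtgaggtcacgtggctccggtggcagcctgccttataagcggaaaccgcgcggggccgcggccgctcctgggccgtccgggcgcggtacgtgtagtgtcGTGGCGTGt

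Motifs were searched on both strands in 29 windows of 300 bases, 250 before and 50 after the start, which 23 of the members have; Stard4, Fdps, Sqle and Fdft1 have none in the table. The NF-Y box CCAAT, bound by a factor known to act beside SREBP2, was found in 19 of the 29 windows (65.5%), against 37.4% of 32851 windows of all genes and 38.4% of those of abundant genes. Each of these 19 windows belongs to another member, and Acat2, Scap, Mbtps1 and Mbtps2 have none. The sterol regulatory element core CACNCCAC, where N is any base, was found in 3 windows (10.3%, against 6.24% of all and 6.41% of abundant genes). It lies once in Hmgcs1, between NF-Y boxes, once in Insig1 and 2 times in Acat2. The Sp1 box GGGCGG was in 79.3% of member windows, 35.7% of all and 64.6% of those of abundant genes, and the E-box CACGTG in 20.7%, 7.15% and 10.5%. The windows of Scap overlap, so an E-box and an Sp1 box there are counted in both, here and among the matches below. By gene, 5 of 23 members had an E-box. Among the 97 matches in member windows, 0 pairs of different motifs share a base. Of the 3 printed genes lower in both conditions, Cyp51 has 1 NF-Y box, Idi1 has 2 and Mbtps2 has none of the 4 motifs in its window. Lbr and Sc5d, also lower in both, have NF-Y boxes too, and Fdps and Stard4 have no window. A match is a description of letters, and binding was not measured.

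**Figure D2:**
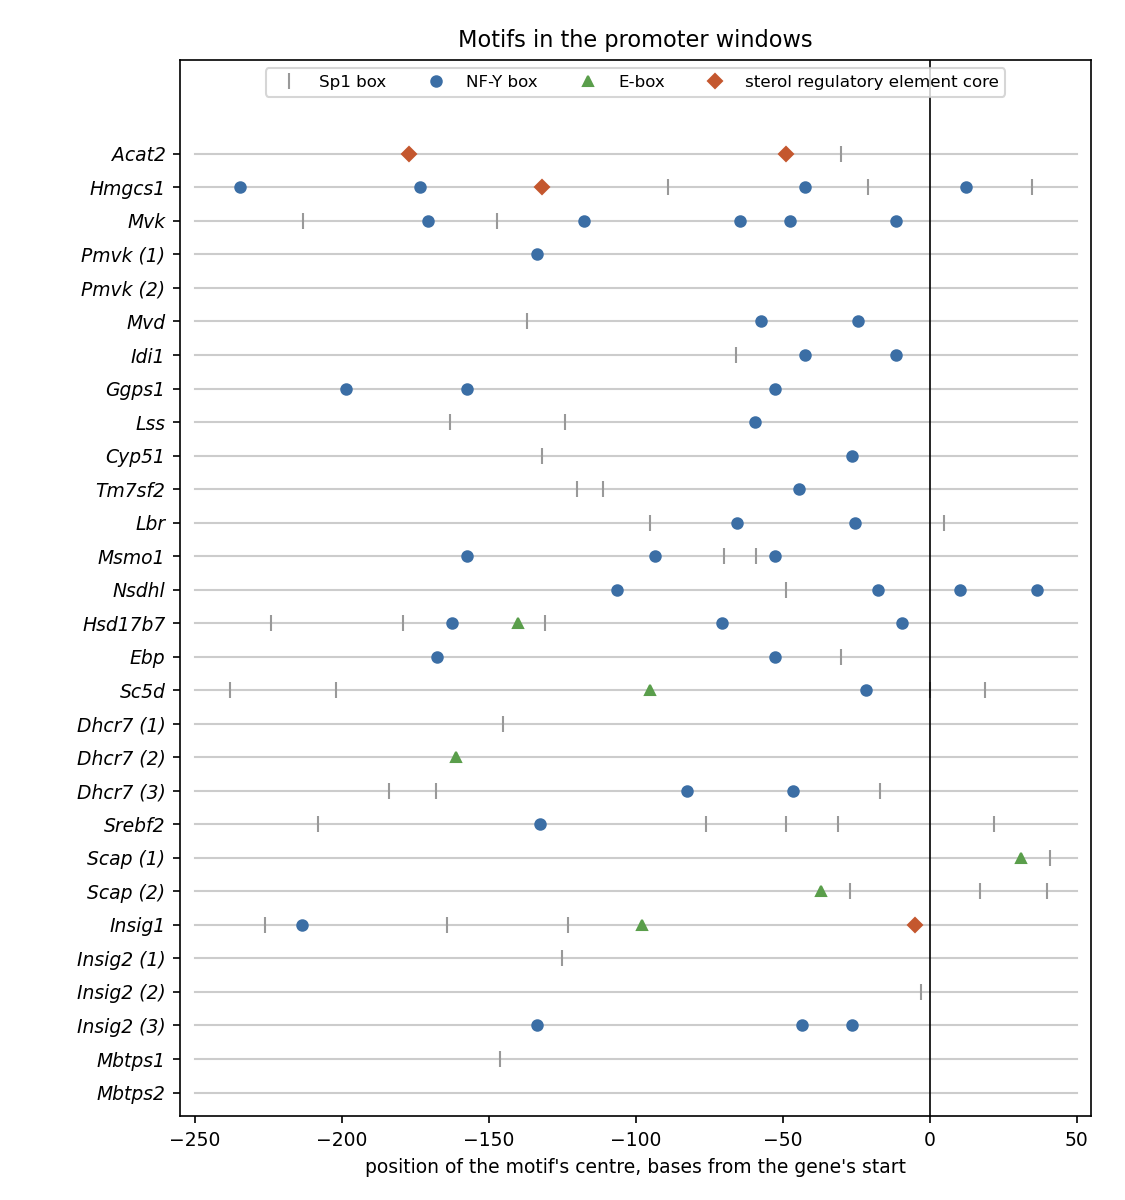
Position of each motif's centre in the 29 promoter windows, in bases from the gene's start, with numbers in brackets where a gene has several windows. NF-Y boxes (blue) are spread over 19 windows, and sterol regulatory element cores (orange diamonds) appear in those of Acat2, Hmgcs1 and Insig1.

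Whether the effect of Smad2 loss differed between paused and control cells was tested for each gene as the paused change minus the control change. No member passed the threshold over the 19134 genes (normal test on the authors' SE, Benjamini-Hochberg adjustment), where 275 genes, 1.44%, did. At an unadjusted p under 0.05 there were 8 members (29.6%), against 12.9% of all genes. That share among abundant genes was not computed. The members' median SE of the changes was 0.064 in control and 0.052 in paused cells, against 0.112 and 0.102 over all genes. The members thus reach a small p more easily than most genes. Of the 27 differences, 17 were negative, with a median of -0.05, and of all genes 48.7% were negative with a median of 0.01.

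The smallest p among the members was that of Insig1, whose difference of -0.23 (SE 0.08, 95% interval -0.38 to -0.08) had an adjusted p of 0.0963. Those of Fdft1 (-0.19, SE 0.07), Msmo1 (-0.24, SE 0.09) and Hmgcs1 (-0.14, SE 0.05) followed, with adjusted p of 0.159, 0.169 and 0.195. Pmvk (0.30, SE 0.12) and Hsd17b7 (0.24, SE 0.11) had the largest differences of the opposite sign, with adjusted p of 0.219 and 0.346. For Srebf2 the difference was -0.14 (SE 0.07, 95% interval -0.28 to 0.00030, adjusted p 0.389). The 3 genes with the largest falls in control cells had small differences: -0.05 for Idi1 (95% interval -0.21 to 0.11), 0.06 for Cyp51 (-0.10 to 0.22) and 0.02 for Mbtps2 (-0.15 to 0.19). These intervals do not show that the effects were equal.

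**Figure D3:**
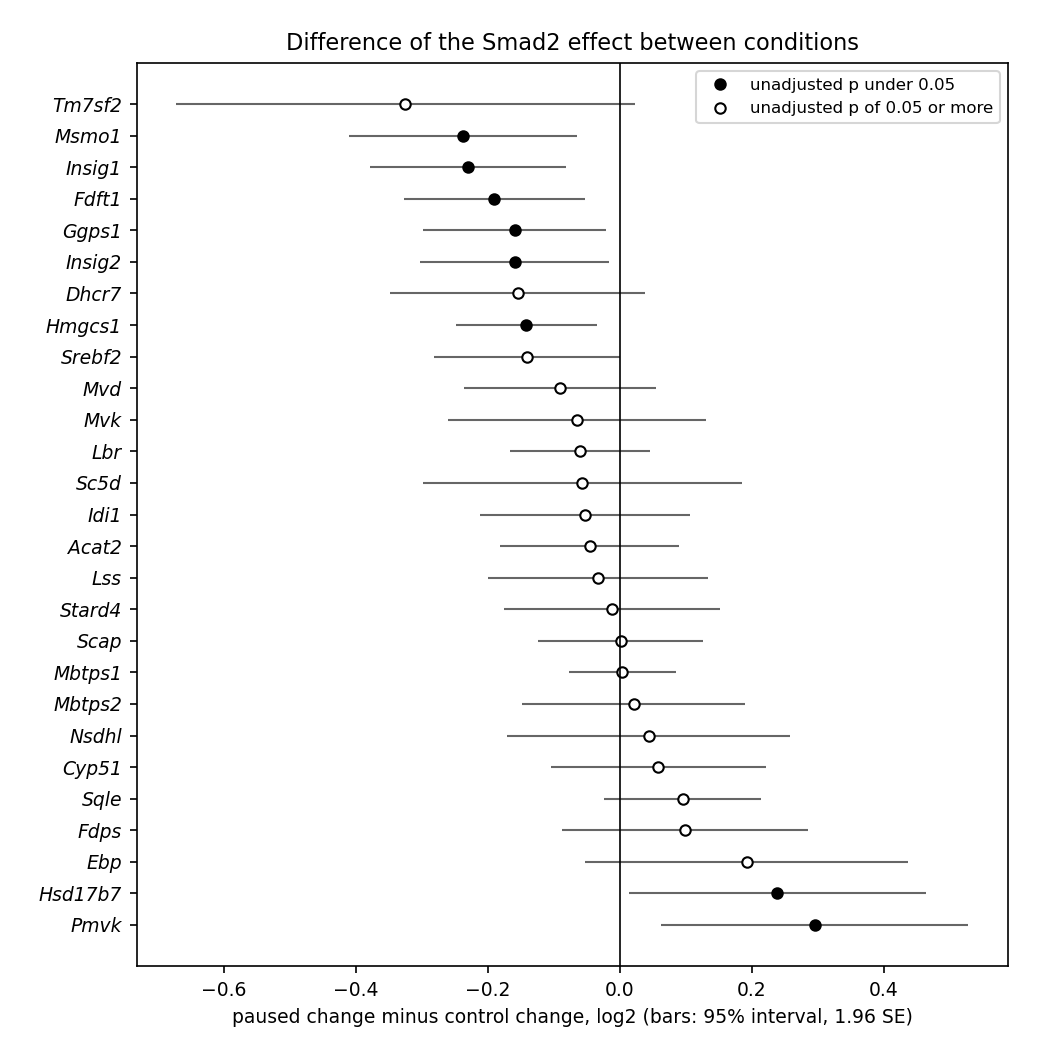
Paused change minus control change of each member on the log2 scale, sorted, with 95% intervals; filled points have an unadjusted p under 0.05. Filled points are 8 of 27, of which Pmvk and Hsd17b7 lie right of 0, and none has an adjusted p under 0.05.

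A larger contrast appeared between the mean levels of the tables themselves. As shares of the summed mean counts, with the genotypes together, 23 of the 27 members were lower in the paused than in the control table, against 43.3% of all genes, and 7 were at least 2-fold lower, against 5.28% of all genes and 3.47% of abundant ones. The median log2 ratio of the members was -0.47, where it was 0.09 over all genes and 0.06 over abundant ones. These ratios have no error and no test, because the tables were normalized separately and give no value per library. Knockout and wild-type libraries are mixed in each mean. With the wild-type level solved from the mean and the change, on the assumption that 4 wild-type and 8 knockout libraries entered each table, the same 7 members were at least 2-fold lower, and the members' median was -0.44.

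The lowest ratio was that of Idi1, from 106 ppm in the control to 26.8 ppm in the paused table, 25.3% of the control level. It lay at the 0.164th percentile of the 10958 abundant genes. Msmo1 went from 36.9 to 12.4 ppm (33.5%), Hsd17b7 from 15.0 to 6.21 ppm (41.5%), Hmgcs1 from 213 to 90.8 ppm (42.6%) and Dhcr7 from 34.8 to 15.4 ppm (44.4%). Fdps stood at 45.2% and Sqle at 49.8% of its control level. These genes come from every stage of the route. Among the 20 enzymes 19 were lower in the paused table. Sc5d was the exception, with 13.6 ppm in control and 17.4 ppm in paused cells, and Lss was nearly level at 98.9%.

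SREBP2 and its partners were spread about 0. Srebf2 was at 78.3% and Insig1 at 72.3% of the control level, whereas Scap was at 99.8%, Mbtps2 at 102%, Insig2 at 112% and Mbtps1 at 120%. Stard4 was at 64.5%. Solving for the wild-type level moved Ggps1, Lss and Scap to just above 0 (log2 ratios 0.01, 0.02 and 0.01), so that 20 of 27 were lower.

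**Figure D4:**
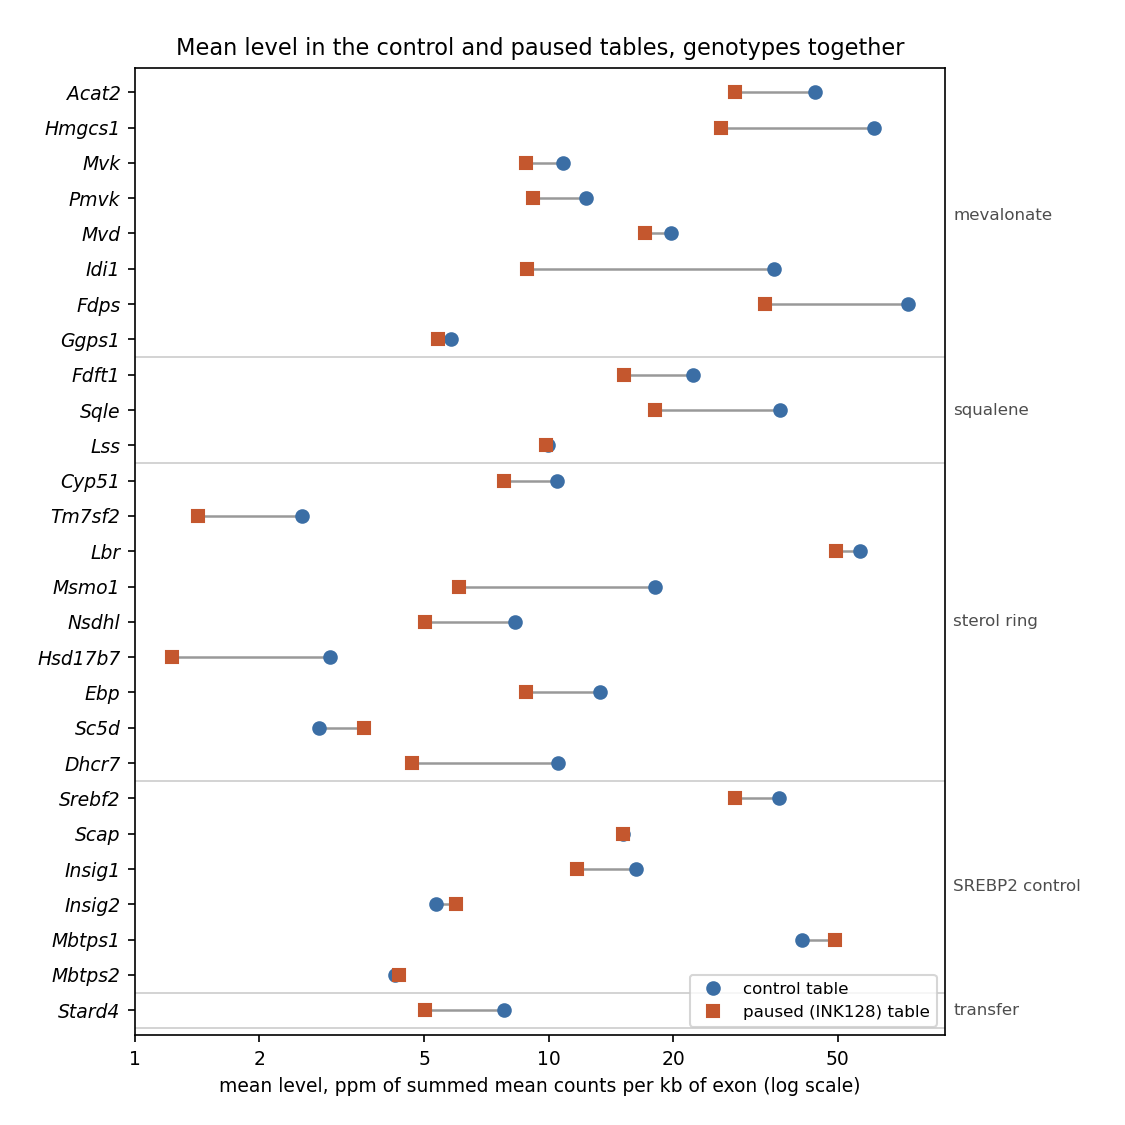
Mean level of each member in the control (blue circles) and paused (orange squares) tables, in ppm of summed mean counts per kb of exon on a log scale. The longest lines are those of Idi1 (35.0 to 8.86) and Msmo1 (18.1 to 6.06), and Scap, Lss and Mbtps2 hardly move.

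**Figure D5:**
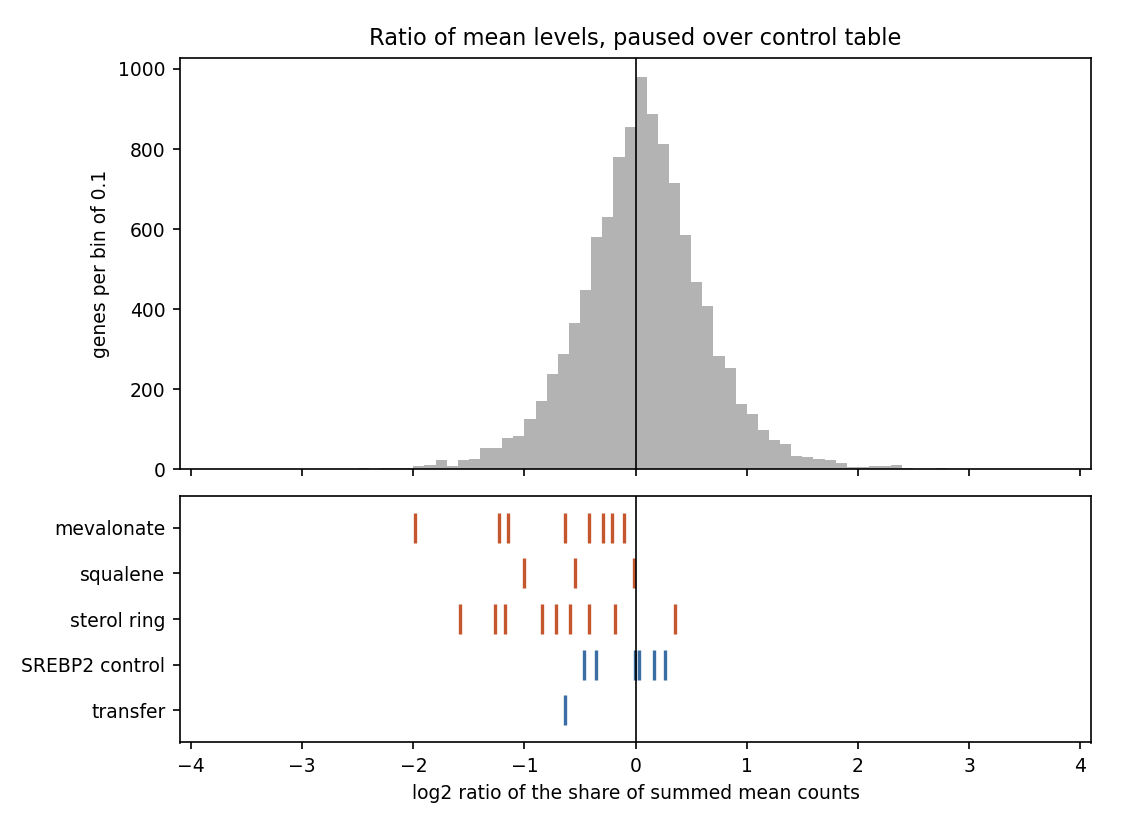
Log2 ratio of mean levels, paused over control table, for 10958 abundant genes (grey bars; the end bin takes in 1 gene beyond the axis) and for each member as a tick by role (orange for enzymes, blue for the others). Enzyme ticks lie left of 0 except that of Sc5d, and the SREBP2 control ticks lie around 0.

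Per kb of exon, the order of the members' levels differed between the tables. In control cells Fdps (74.1 ppm per kb), Hmgcs1 (61.2), Lbr (56.5), Acat2 (44.0) and Mbtps1 (40.9) were the highest, and Tm7sf2 (2.54), Sc5d (2.79) and Hsd17b7 (2.97) the lowest. In paused cells Lbr (49.7) and Mbtps1 (49.2) led, ahead of Fdps (33.5), Acat2 (28.2) and Srebf2 (28.2). Idi1 went from the 8th to the 14th place and Msmo1 from the 11th to the 18th. No error can be given for these places.

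Other genes of sterol handling are given as lists, with the count over each whole list. Their counts stand beside 21.9% lower and 19.5% higher of all genes in control cells, 22.0% and 20.5% in paused cells, and 31.6% and 31.9% lower of abundant genes. Of 11 genes of sterol uptake, trafficking and storage, the authors' deposited tables called 2 higher and 2 lower in control cells, and 2 higher and 3 lower in paused cells. Soat1, which esterifies cholesterol for storage, changed more than any member: it fell by 1.06 (SE 0.15, adjusted p 1.09e-10) and by 0.87 (SE 0.12, adjusted p 5.65e-12) in both conditions of the authors' deposited tables, control first. Lipa, the lysosomal lipase that frees cholesterol from its esters, fell by 0.45 (SE 0.11) and by 0.56 (SE 0.10) in the authors' deposited tables. Npc1, which exports cholesterol from lysosomes, rose by 0.21 (SE 0.04) in control cells and had a paused change of -0.10 (SE 0.05, adjusted p 0.0665) in the authors' deposited tables.

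In the list of isoprenoid use, 8 of 14 genes were lower and 1 higher in control cells, and 8 lower and 2 higher in the paused state of the authors' deposited tables, with medians of -0.17 and -0.18. Coq2, which joins the isoprenoid tail to the ubiquinone ring, fell by 0.46 (SE 0.08) and by 0.36 (SE 0.05), and Pdss1, which makes that tail, by 0.32 (SE 0.07) and by 0.22 (SE 0.07) in the authors' deposited tables. Of 6 electron donors and partners of sterol enzymes, 3 were lower and 0 higher in each of the authors' deposited tables. Pgrmc1, a haem protein that binds P450 enzymes, fell by 0.40 (SE 0.05) in control and by 0.34 (SE 0.04) in paused cells there, as deposited by the authors.

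Of 9 genes of the sterol-regulated degradation of membrane proteins, 3 were lower and 1 higher in each of the authors' deposited tables. Of 11 genes for the vesicle coat that carries SCAP and SREBP2 and for its regulators, 3 were higher and 2 lower in control, and 3 higher and 3 lower in the paused state of the authors' deposited tables. Paqr3, a Golgi protein that binds SCAP, had a control change of -0.08 (SE 0.08, adjusted p 0.419) and fell by 0.52 (SE 0.09, adjusted p 1.18e-07) in the paused state of the authors' deposited tables.

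The sterol-responsive nuclear receptors LXR and their targets form the opposite arm, which exports cholesterol when it is plentiful. In control cells 1 of 7 genes was called lower, and in paused cells 2 were called higher and 1 lower, by the authors' deposited tables. Their mean levels, paused over control table, were 2.37-fold for Apoe, 2.24-fold for Abcg1, 2.22-fold for Abca1, 2.10-fold for Nr1h3, 1.17-fold for Lpcat3, 1.14-fold for Nr1h2 and 0.706-fold for Mylip. Of all genes 8.53% were at least 2-fold higher, and 0 of the 27 members were. Nr1h3 was scarce, at 0.95 and 2.00 ppm. These are all 7 genes of the list; Abca1, Nr1h3, Lpcat3 and Nr1h2 are outside the rule for names and were named after their values were seen. Of the 10 genes of SREBP1 and fatty acid synthesis, 4 were higher and 1 lower in control cells and 5 higher and 1 lower in the paused state of the authors' deposited tables, and of the 20 sterol enzymes 5 and 11 were lower and 0 and 1 higher. Scd2, a stearoyl-CoA desaturase, fell by 0.64 (SE 0.13, adjusted p 4.85e-06) in control cells and had a paused change of 0.09 (SE 0.10, adjusted p 0.510) by the authors' deposited tables. Scd1, another such desaturase, rose by 0.27 (SE 0.07) and by 0.78 (SE 0.06) in the authors' deposited tables. Elovl6, a fatty acid elongase, rose by 0.47 (SE 0.06) and by 0.54 (SE 0.06) in the authors' deposited tables, and Acss2, an acetyl-CoA synthetase, by 0.43 (SE 0.08) and by 0.52 (SE 0.07). The 2 lists were not tested against each other. In mean level, paused over control table, the fatty acid list was near the sterol enzymes: its median log2 ratio was -0.64 with 7 of 10 genes lower and 2 at least 2-fold lower, beside -0.62 with 19 of 20 lower and 7 at least 2-fold lower. All 6 electron donors and partners were lower in level too (median -0.29). The medians were -0.17 for isoprenoid use, -0.01 for the vesicle coat, 0.27 for uptake, trafficking and storage, and 0.32 for degradation.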

How the data were processed

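Poly(A) RNA was sequenced from 24 libraries in 6 groups of 4, grouped by genotype and treatment from the labels. The submitters' processing notes name FastQC, Trim Galore, HISAT2, featureCounts and DESeq2 with mm10, with no version or setting. Per the file headers, the authors deposited 2 DESeq2 results tables: a mean normalized count (a signal value), a log2 change and its standard error on the log2 scale, a statistic (a score), a p-value and an adjusted p-value. Recomputed adjusted p-values differed from the deposited ones by a share of at most 0.0085. Which libraries entered each table, the annotation and the use of strand are not given in the sources used here.

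The authors' deposited DESeq2 tests were used as they stand, adjusted over all genes of a table. Differences between conditions were tested as described in the report, with scipy 1.17.1, pandas 2.3.3 and numpy 2.4.6 under Python 3.11.15 (figures: matplotlib 3.10.9), and tested on simulated data. Genes called abundant reach 5 ppm of summed means (230 normalized counts in control, 221 in paused cells). Exon length, exon overlap and near-identical copies (at least 95% over 200 bases) come from GENCODE M21. Older symbols were matched through RefSeq. The last 20 bases of 27 of the 29 promoter windows lie in a GENCODE transcript of their gene and those of 0 reverse complements do.

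All 27 members are named with their changes. From each other list at most 4 called genes with the largest change may be named. The members, lists and tests were chosen with earlier results of these data known. Tests with values per library, leaving out replicates, and the printing of INSIG proteins were planned and not run.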

Additional observations from a re-analysis of the deposited data

Results flagged for a closer look

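The effect of Smad2 loss differed between paused and control cells, by the test of the difference itself over 19134 genes, for 4 of the 68 genes in the lists around the sterol route and for 0 of the 27 members, where 275 genes of all (1.44%) passed. With that share, the 0 is no result about the members. For Npc1 the paused change minus the control change was -0.31 (SE 0.06, adjusted p 3.36e-04) and for Paqr3 it was -0.44 (SE 0.12, adjusted p 0.0263). The desaturase genes had differences of the other sign, 0.52 for Scd1 (SE 0.10, adjusted p 1.01e-04) and 0.73 for Scd2 (SE 0.16, adjusted p 0.00313).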

How the results depend on the processing

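No paired analysis was possible because the tables hold results of a comparison and no value per library, and for the same reason leaving out a replicate in turn was not run. Depth is not known for any library, so the deposited standard errors are the only measure of precision here.

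With 7 members called in control and 17 in paused cells as reported, an adjusted p under 0.01 left 3, all lower, in control cells (30.9% of all genes, 16.4% lower) and 15, 13 lower and 2 higher, in paused cells (32.3% of all genes). Testing for changes beyond 1.2-fold left 0 in control and 1, lower, in paused cells (Idi1), with 0 higher, against 10.6% of all genes in each condition. The statistic divided by its middle spread left 0 in either condition and either direction. Requiring a change of at least 1.2-fold left 2 (lower) in control and 4 (lower) in paused cells, with 0 higher, against 28.5% and 26.8% of all genes, of which 12.8% and 11.3% lower. Centring on the median of abundant genes (a shift of -0.05 in both tables), equal summed counts, and equal summed counts for 4 knockout libraries (added after seeing the data) each gave 3 lower and 4 higher in control cells. Centring gave 4 higher in paused cells. The 4 called higher in control cells were Mvd, Fdft1, Sqle and Scap. With only abundant genes tested, 8 members were called in control cells, all lower, against 51.6% of the genes tested, 32.6% lower. In paused cells 18 were called, 16 lower and 2 higher, against 53.0%, with 32.8% lower and 20.2% higher. This setting gained Msmo1 in control cells (adjusted p 0.0473) and Insig2 in paused cells (adjusted p 0.0423). For the difference, 0 members were called under each alternative run for it. These were an adjusted p under 0.01, centring, equal summed counts, the statistic divided by its middle spread, and testing only abundant genes. Scaling to a median ratio of 1 moved the members' median level ratio to -0.56. The causes were not tested.

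Only values that were not called changed sign. Under centring, equal sums and equal sums for 4 knockout libraries, in that order, these were Hmgcs1 in control (0.053, 0.055 and 0.048), Hsd17b7 in control (0.011, 0.012 and 0.0058) and Mvd in paused cells (0.027, 0.015 and 0.0093). The differences of Scap (-0.0049 and -0.018) and Mbtps1 (-0.0021 and -0.016) did so under the first 2 of these. Over the 564 values of single genes under alternatives, 90 calls were lost and 18 gained. The 4 motif counts, in 250 bases before the start, stayed at 3 (sterol regulatory element core), 19 (NF-Y box), 5 (E-box) and 20 (Sp1 box) genes. Counted by windows, the E-box went from 6 to 5 of 29 and the Sp1 box from 23 to 22, and the others stayed. Tm7sf2, under the minimum on abundance, has no value there.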
